A study of Mus musculus with 17 samples.

Results

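Interferon-stimulated genes are the genes that cells switch on after an interferon has bound its receptor. A list of 42 such genes was followed in sorted mouse eosinophils on 17 microarrays. Members were found by gene symbol in the platform annotation, and probe sets with a single symbol were averaged per gene. Of the 42 genes, 38 had a probe set of their own, among 22180 genes measured in all. Irf8 and Ifi35 had 2 probe sets each. Oas1a, Gbp2 and Dtx3l were present only on probe sets shared with Oas1g, Gbp2b and Parp9, and Ifi44 was not analysed here.

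All mice carried the CC10-IL13 transgene, through which food with doxycycline (Dox) induces interleukin-13 (IL-13); CC10 is known as the promoter of a protein of airway club cells. The mice were Pirb-/- (knockout) or Pirb+/+ littermates (wildtype), male and female, aged 6 to 8 weeks. Pirb is the gene of PIR-B, an inhibitory receptor found on eosinophils and other myeloid cells, and the labels do not tie its loss to any cell type. The groups were knockout esophagus with Dox, wildtype esophagus with Dox, knockout marrow with Dox, wildtype marrow with Dox, knockout marrow with no Dox (3 arrays each) and wildtype marrow with no Dox (2 arrays). Dox was fed for 2 weeks, and cells positive for CD45, SiglecF and CCR3 were sorted as eosinophils. No group lacked the transgene, so Dox itself and IL-13 cannot be told apart. The labels do not say whether replicates came from separate mice, so the p-values speak for the spread among these arrays alone.

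Type I interferons (interferon alpha and beta) act through a receptor whose kinases activate a complex that holds STAT2 and IRF9 and binds the interferon-stimulated response element (ISRE) of its target genes. Interferon gamma acts through the gamma-activated site (GAS). The induced proteins sense foreign RNA, block its translation, degrade it or damage the compartments in which microbes live. Eosinophils express interferon receptors and are best known for their part in allergic inflammation driven by IL-13 and related cytokines.

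Promoters of members that differed between esophagus and marrow are shown first, because those comparisons held the members that passed the test. Each sequence runs from 250 bases before to 50 bases after the start of the RefSeq gene (build GRCm38.p6), 5′ to 3′ on the gene's strand, with matches to the ISRE (GAAA, any 2 bases, GAAA; ISRE matches may overlap each other) or to the GAS (TTCNNNGAA) on either strand in capitals. The Isg15 promoter (chr4:156200769-156201068, minus strand) held 3 overlapping ISRE matches. Those of Oasl1 (chr5:114922990-114923289, plus strand) and Oas3 (chr5:120777610-120777909, minus strand) held 0 and 1 ISRE matches. The first of the Irf8 starts (chr8:120736108-120736407, plus strand) had 2 GAS matches and no ISRE. Eif2ak2 (chr17:78882523-78882822, minus strand) had 1 match of each kind.
Isg15: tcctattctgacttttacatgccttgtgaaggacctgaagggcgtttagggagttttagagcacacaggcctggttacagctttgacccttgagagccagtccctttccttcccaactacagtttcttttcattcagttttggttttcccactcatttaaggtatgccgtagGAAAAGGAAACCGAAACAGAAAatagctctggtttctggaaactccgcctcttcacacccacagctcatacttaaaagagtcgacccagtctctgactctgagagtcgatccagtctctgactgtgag
Oasl1: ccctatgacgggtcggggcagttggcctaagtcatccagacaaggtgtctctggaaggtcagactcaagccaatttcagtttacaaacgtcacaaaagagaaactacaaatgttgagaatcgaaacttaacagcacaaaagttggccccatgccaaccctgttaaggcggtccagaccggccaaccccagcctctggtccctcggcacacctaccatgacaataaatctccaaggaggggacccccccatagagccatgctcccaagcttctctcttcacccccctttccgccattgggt
Oas3: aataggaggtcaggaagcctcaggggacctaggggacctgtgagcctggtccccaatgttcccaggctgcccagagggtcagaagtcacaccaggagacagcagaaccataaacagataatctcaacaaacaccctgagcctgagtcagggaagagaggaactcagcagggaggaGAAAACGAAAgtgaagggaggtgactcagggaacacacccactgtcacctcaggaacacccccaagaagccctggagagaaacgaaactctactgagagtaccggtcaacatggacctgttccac
Irf8: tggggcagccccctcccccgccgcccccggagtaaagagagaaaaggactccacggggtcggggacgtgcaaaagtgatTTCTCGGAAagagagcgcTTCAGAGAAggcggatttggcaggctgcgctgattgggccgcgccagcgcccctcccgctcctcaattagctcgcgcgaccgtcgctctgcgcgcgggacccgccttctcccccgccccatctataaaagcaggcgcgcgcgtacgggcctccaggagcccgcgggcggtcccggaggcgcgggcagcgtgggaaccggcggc
Eif2ak2: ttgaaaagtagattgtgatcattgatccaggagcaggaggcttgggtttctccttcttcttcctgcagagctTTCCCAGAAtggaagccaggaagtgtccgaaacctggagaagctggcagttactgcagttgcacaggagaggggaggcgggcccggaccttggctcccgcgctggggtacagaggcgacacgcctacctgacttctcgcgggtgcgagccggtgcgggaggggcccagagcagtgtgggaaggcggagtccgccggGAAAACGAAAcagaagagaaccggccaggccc
Of the 42 members, 33 had a promoter in the table. An ISRE match stood in 19 of these 33 (57.6%), against 3.99% of 27025 genes, and a GAS match in 12 (36.4%), against 9.55%. A gene was counted when the promoter of any of its starts held a match. All 3 members that rose in the esophagus had a promoter in the table, of which 2 held an ISRE match and 0 a GAS match. Of the 8 that fell, 6 had one, of which 4 held an ISRE and 3 a GAS match. A match is a run of letters and not a tested binding site.

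Each value is a log2 distance from that probe set's median over the arrays. A gene at 0 stood in the middle of the arrays, whatever its brightness, so levels cannot be set against each other between genes and whether a gene was expressed could not be read. Differences were tested with limma in 1 model of 6 group means, and a gene passed when its two-sided p, adjusted by the Benjamini-Hochberg method over 22180 genes, was under 0.05. Standard errors (SE) come from that model. Counts at an unadjusted p under 0.05 are given for members alone. The shares of all genes beside them are for the adjusted threshold, so these counts show no excess over all genes.

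Pirb itself was 0.77, 1.20 and 1.02 in knockout esophagus, against 2.17, 0.75 and 0.92 in wildtype esophagus, and its genotype difference of -0.28 ± 0.39 (SE) did not pass (limma adjusted p = 0.707). Whether its probes lie in the deleted part is not known, so it checks no label. The array of knockout marrow with no Dox, replicate 3, stood apart: its values had an SD of 0.802 over all genes, and its mean correlation with its own group was -0.027, against 0.380 with wildtype esophagus. The 8 measured eosinophil markers averaged -0.18 to 0.22 per array in knockout esophagus, -0.89 to -0.37 in wildtype esophagus, 0.049 to 0.40 in knockout marrow with Dox and 0.10 to 0.32 in wildtype marrow with Dox. Neutrophil markers averaged -2.55 to -2.39 in knockout esophagus, against -0.051 to 0.36 in knockout marrow with Dox. In wildtype the same 12 genes averaged -3.34 to -2.50 in esophagus, against 0.0013 to 0.40 in marrow with Dox.

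**Figure D1:**
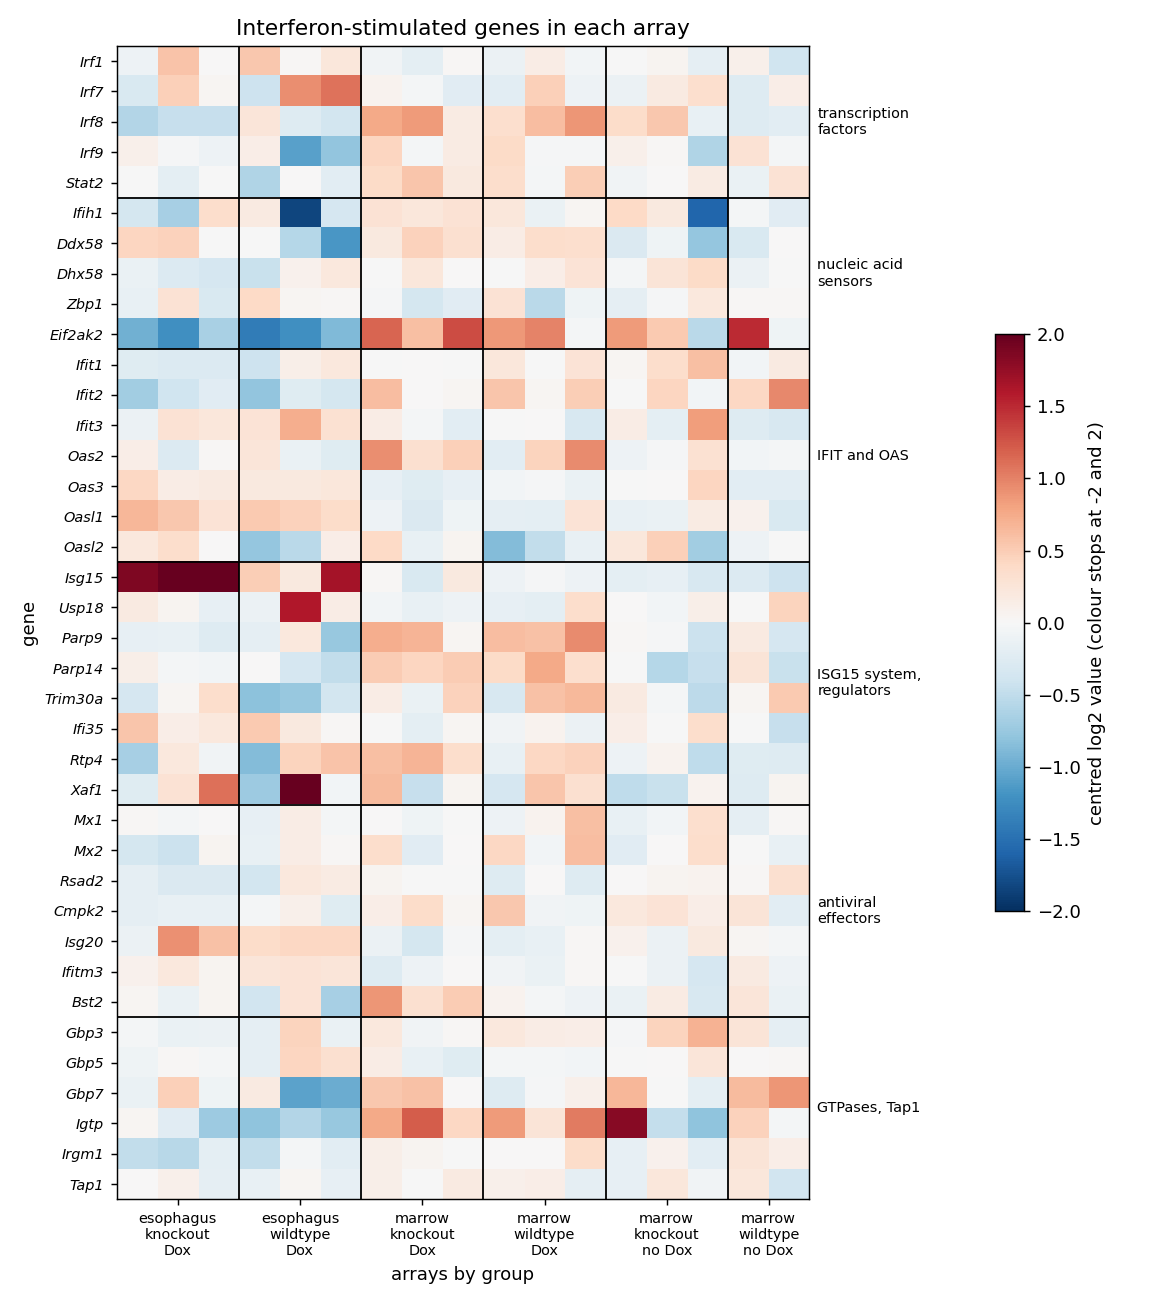
Centred log2 value of each of the 38 genes (rows, grouped by role) in each of the 17 arrays (columns, grouped by tissue, genotype and Dox); red is above and blue below the median array of that gene. Isg15 is the dark red row in the 3 knockout esophagus arrays, and Eif2ak2 is blue in all 6 esophagus arrays.

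Esophageal eosinophils with Dox differed from marrow eosinophils with Dox in 11 members, and the direction was mixed (marrow in these comparisons is marrow with Dox). Isg15, which encodes a ubiquitin-like protein that is joined to other proteins, had the largest rise, by 2.12 on the log2 scale in knockout. Eif2ak2, the gene of the RNA-activated kinase PKR that shuts down translation, had the largest fall, with differences of -1.97 in knockout and -1.77 in wildtype. In knockout 3 members rose (Isg15, Oasl1, Oas3) and 3 fell (Irf8, Eif2ak2, Irgm1), which is 15.8% of 38, against 10.5% of all genes (4.50% higher, 6.04% lower). In wildtype 1 rose (Oasl1) and 7 fell (Eif2ak2, Parp14, Parp9, Ifit2, Ddx58, Trim30a, Irf8), or 21.1%, against 15.2% of all genes (8.11% higher, 7.06% lower). The median member difference was -0.17 in knockout and -0.19 in wildtype, while the medians of all genes were 0.060 and 0.14. Arrays of the esophagus lay wholly below those of marrow for 15 members in knockout (39.5%, against 16.0% of all genes) and for 9 in wildtype (23.7%, against 13.1%). They lay wholly above for 5 in knockout (13.2%, against 28.0%) and 6 in wildtype (15.8%, against 33.0%). These are RNA values of bulk sorted cells, in which fewer cells of a type and less RNA per cell cannot be told apart.

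Eif2ak2, Irf8 and Oasl1 passed in both genotypes, which is 50% of the knockout calls and 37.5% of the wildtype calls. The sign was the same in both genotypes for 36 of 38 members, with 14 higher and 22 lower in the esophagus. How often all genes kept their sign was not counted, so this is not shown to be particular to the members. The comparisons in knockout and wildtype share no arrays but share the model's estimate of spread. The interaction of genotype and tissue passed for 0 members and for 0.00451% of all genes, with 3 members at an unadjusted p under 0.05, so a call in 1 genotype alone is not a difference between genotypes. The calls in knockout numbered 3 in place of 6 without marrow Dox knockout replicate 2. In wildtype they numbered, in place of 8, 16 (42.1%, against 36.5% of all genes) without the outlying knockout array with no Dox, 1, 3 and 3 without wildtype marrow Dox replicates 1, 2 and 3, 4 and 2 without wildtype esophagus replicates 2 and 3, and 5 without knockout marrow Dox replicate 1 or knockout esophagus replicate 2. Without wildtype esophagus replicate 1, Isg15, Irf7, Irf9, Rsad2, Gbp5 and Gbp7 were gained in wildtype and Ifit2, Oasl1 and Trim30a lost. After quantile normalization 2 members rose and 4 fell in knockout, and 0 rose and 2 fell in wildtype. After median centring the wildtype split was 0 and 9. Calls among all genes moved too, between 1538 and 6117 in knockout (2336 in the full data). In wildtype they ran between 1335 and 8210 (3366). Apart from the 16, these member counts are not set against the share of all genes in the same setting. They show no change particular to the members.

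**Figure D2:**
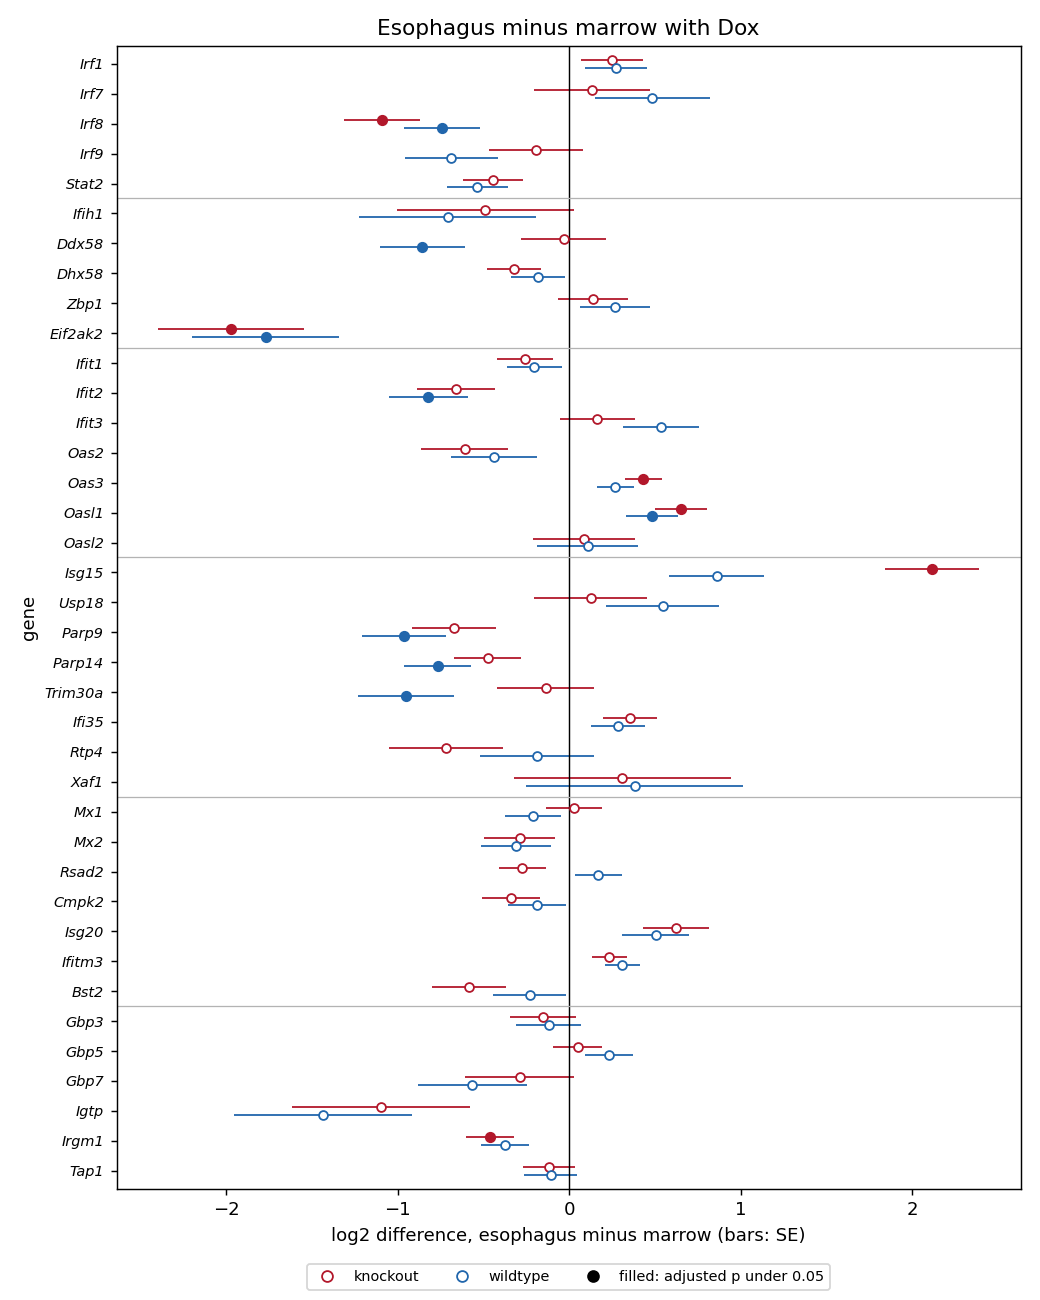
Log2 difference, esophagus minus marrow with Dox, of each of the 38 genes in knockout (red) and wildtype (blue); points are model estimates, bars are SE and filled points have an adjusted p under 0.05. Isg15 in knockout lies farthest to the right at 2.12 and Eif2ak2 farthest to the left at -1.97 in knockout and -1.77 in wildtype.

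The transcription factor Irf8, known for its role in macrophage and dendritic cell development and in fate choice among granulocytes, fell in the esophagus in both genotypes. It was -0.59, -0.46 and -0.45 in knockout esophagus, against 0.75, 0.85 and 0.17 in knockout marrow, a difference of -1.09 ± 0.22 (SE, limma adjusted p = 0.00603). Wildtype esophagus had 0.25, -0.26 and -0.37, against 0.33, 0.62 and 0.88 in wildtype marrow, a difference of -0.74 ± 0.22 (limma adjusted p = 0.0406). All 6 esophagus arrays lay below all marrow arrays with Dox of their genotype. The 2 Irf8 probe sets differed: the first gave -0.28 in knockout and -0.23 in wildtype, the second -1.91 and -1.25. With the first probe set alone neither call remained (limma adjusted p = 0.324 and 0.280).

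Stat2, whose protein belongs to the complex that binds the ISRE, had differences of -0.44 in knockout and -0.53 ± 0.18 in wildtype, neither past the threshold (limma adjusted p = 0.142 and 0.0556). Irf9, the DNA-binding subunit of that complex, had -0.19 and -0.69. Irf1 and Irf7, which activate interferon-induced and interferon genes, had positive differences that did not pass, at 0.25 and 0.13 in knockout and 0.27 and 0.48 in wildtype. Irf7 split the wildtype esophagus arrays, with values of -0.41, 0.94 and 1.08.

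Among the sensors of foreign nucleic acid, Eif2ak2 showed the tissue difference in every array. Its values were -0.97, -1.23 and -0.65 in knockout esophagus, against 1.16, 0.60 and 1.30 in knockout marrow (-1.97 ± 0.43, limma adjusted p = 0.00912). In wildtype they were -1.39, -1.22 and -0.88 in esophagus, against 0.87, 0.99 and -0.041 in marrow (-1.77 ± 0.43, limma adjusted p = 0.0176). No esophagus array reached the lowest marrow array with Dox, and marrow arrays with no Dox spread widely, at 0.85, 0.53 and -0.53 for knockout and 1.50 and -0.090 for wildtype.

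Ddx58, the gene of the RNA sensor RIG-I, was 0.43, 0.46 and -0.0038 in knockout esophagus, against 0.20, 0.45 and 0.32 in knockout marrow, a difference of -0.031 with overlapping arrays. Wildtype esophagus had -0.0021, -0.57 and -1.16, against 0.14, 0.35 and 0.34 in wildtype marrow, where it fell (-0.86 ± 0.25, limma adjusted p = 0.0365). The wildtype esophagus arrays all lay below marrow but were far from each other. Its relative Ifih1, encoding the long-RNA sensor MDA5, had -0.49 in knockout and -0.71 in wildtype, Dhx58, encoding LGP2 of the same family, -0.32 and -0.18, and Zbp1, a sensor of Z-form nucleic acid, 0.14 and 0.27. None of these 3 passed.

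The IFIT proteins bind viral RNA at its 5′ end, and the OAS enzymes make the messenger that activates the RNA-cutting enzyme RNase L. Among the listed members of this group the calls in the OAS family were rises and the 1 IFIT call was a fall. Oasl1, an OAS relative without that enzyme activity that is known in mice to hold back IRF7 translation, rose in both genotypes. It was 0.67, 0.53 and 0.28 in knockout esophagus, against -0.10, -0.29 and -0.078 in knockout marrow (0.65 ± 0.15, limma adjusted p = 0.0138). It was 0.53, 0.47 and 0.36 in wildtype esophagus, against -0.18, -0.19 and 0.27 in wildtype marrow (0.48 ± 0.15, limma adjusted p = 0.0476). All esophagus arrays lay above those of marrow with Dox in their genotype. The knockout call held in 21 of 24 alternative settings and the wildtype call in 8.

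Oas3 was 0.41, 0.15 and 0.18 in knockout esophagus, against -0.16, -0.24 and -0.17 in knockout marrow, and rose by 0.43 ± 0.11 (limma adjusted p = 0.0201). In wildtype it was 0.19, 0.19 and 0.22 in esophagus, against -0.051, -0.027 and -0.13 in marrow, a difference of 0.27 ± 0.11 that did not pass (limma adjusted p = 0.0955), with arrays wholly apart in both genotypes. Ifit2, whose protein also has links to cell death, was -0.70, -0.40 and -0.22 in knockout esophagus, against 0.62, 0.0077 and 0.032 in knockout marrow (-0.66 ± 0.23, limma adjusted p = 0.0901). Wildtype esophagus had -0.79, -0.24 and -0.35, against 0.56, 0.043 and 0.49 in wildtype marrow, and there Ifit2 fell (-0.82 ± 0.23, limma adjusted p = 0.0314).

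Ifit1 and Ifit3 differed by -0.26 and 0.16 in knockout and by -0.20 and 0.54 in wildtype, and did not pass. Oas2 had -0.61 in knockout and -0.44 in wildtype, and Oasl2, a second OAS-like gene, had 0.087 and 0.11. OAS and IFIT genes lie in families of similar sequence, and whether their probes read relatives was not tested. The probe set shared by Oas1a and Oas1g had differences of -0.86 in knockout and -0.10 in wildtype, which were not tested. Oas1g, outside the list of members, also has a probe set of its own and fell in wildtype (-3.05, limma adjusted p = 0.0290). In knockout its difference of -2.35 did not pass (limma adjusted p = 0.0978). Without knockout marrow with no Dox, replicate 3, it did (limma adjusted p = 0.000251).

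Isg15 had the largest tissue difference of the list. It was 1.87, 2.09 and 2.31 in knockout esophagus, against 0.018, -0.30 and 0.20 in knockout marrow, a rise of 2.12 ± 0.28 (SE, limma adjusted p = 0.000316). In wildtype it was 0.50, 0.20 and 1.66 in esophagus, against -0.11, -0.018 and -0.098 in marrow, with a difference of 0.86 ± 0.28 (limma adjusted p = 0.0522). Every esophagus array lay above every marrow array with Dox of its genotype, and wildtype esophagus replicate 3 stood close to the knockout arrays. The knockout call held in 24 of 24 alternative settings, with adjusted p between 2.06e-06 and 0.00480, and the wildtype difference passed in 5 of 24.

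Usp18, the protease that removes ISG15 and restrains the interferon receptor, had 0.17, 0.062 and -0.16 in knockout esophagus, against -0.054, -0.15 and -0.099 in knockout marrow (0.13, not passed). Wildtype esophagus had -0.11, 1.60 and 0.15, against -0.17, -0.19 and 0.35 in wildtype marrow (0.55, not passed), with 1 high array in wildtype esophagus. Parp9 and Parp14, ADP-ribosyltransferase family members, fell in wildtype. Parp9 was -0.17, -0.14 and -0.26 in knockout esophagus, against 0.73, 0.68 and 0.045 in knockout marrow (-0.67 ± 0.24, limma adjusted p = 0.108). It was -0.18, 0.22 and -0.76 in wildtype esophagus, against 0.62, 0.59 and 0.95 in wildtype marrow (-0.96 ± 0.24, limma adjusted p = 0.0220). Both tissue gaps were free of overlap. The probe set that Dtx3l, its E3 ligase partner, shares with Parp9 had differences of -0.49 in knockout and -0.64 in wildtype.

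Parp14 was 0.12, -0.042 and -0.061 in knockout esophagus, against 0.51, 0.43 and 0.50 in knockout marrow (-0.48 ± 0.19, limma adjusted p = 0.156). It was 0.0093, -0.34 and -0.49 in wildtype esophagus, against 0.38, 0.76 and 0.34 in wildtype marrow (-0.77 ± 0.19, limma adjusted p = 0.0218). Its arrays too were wholly apart in both genotypes. Trim30a, a mouse TRIM protein known to dampen NF-kappaB signalling, was -0.34, 0.038 and 0.36 in knockout esophagus, against 0.14, -0.14 and 0.46 in knockout marrow (-0.14, overlapping). Wildtype esophagus had -0.82, -0.75 and -0.37, against -0.33, 0.59 and 0.65 in wildtype marrow, and there it fell (-0.95 ± 0.28, limma adjusted p = 0.0394). Of the remaining genes in this group, Ifi35 had 0.36 in knockout and 0.29 in wildtype, Rtp4 -0.72 and -0.19, and the cell death gene Xaf1 0.31 and 0.38. None of them passed. The sign for Xaf1 rested on 1 array in each genotype. Its difference was -0.049 in knockout without knockout esophagus replicate 3. In wildtype it was -0.57 without wildtype esophagus replicate 2.

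The other antiviral effectors had no call in either genotype. Isg20, an RNA exonuclease, had the largest positive difference among them, 0.62 ± 0.19 in knockout (limma adjusted p = 0.0597) and 0.50 ± 0.19 in wildtype (limma adjusted p = 0.0875). Bst2, the tether that holds budding virus at the cell surface, had the largest negative one in knockout, -0.58 ± 0.21 (limma adjusted p = 0.111), and -0.23 in wildtype. Ifitm3, which blocks viral entry from endosomes, differed by 0.23 in knockout and 0.31 in wildtype (limma adjusted p = 0.190 and 0.0580). The dynamin-like GTPases Mx1 and Mx2 had 0.026 and -0.29 in knockout and -0.21 and -0.31 in wildtype. Rsad2 (viperin) and its neighbour Cmpk2, a nucleotide kinase, had -0.27 and -0.34 in knockout and 0.17 and -0.19 in wildtype.

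Interferon-induced GTPases coat the vacuoles of intracellular microbes. Irgm1, which regulates the other GTPases of its family in mice, was -0.49, -0.55 and -0.20 in knockout esophagus, against 0.11, 0.049 and -0.0063 in knockout marrow, and fell (-0.46 ± 0.14, limma adjusted p = 0.0499). It was -0.49, -0.037 and -0.21 in wildtype esophagus, against 0.014, 0.0063 and 0.36 in wildtype marrow (-0.37 ± 0.14, limma adjusted p = 0.0796). The knockout call stood just inside the threshold and held in 10 of 24 alternative settings.

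Igtp (IRGM3) had larger differences that did not pass. It was 0.044, -0.22 and -0.72 in knockout esophagus, against 0.76, 1.22 and 0.42 in knockout marrow (-1.10 ± 0.52, limma adjusted p = 0.228), and -0.81, -0.58 and -0.75 in wildtype esophagus, against 0.85, 0.26 and 1.04 in wildtype marrow (-1.44 ± 0.52, limma adjusted p = 0.0744). Its esophagus arrays lay below those of marrow with Dox in both genotypes. The guanylate-binding proteins Gbp3, Gbp5 and Gbp7 had -0.15, 0.049 and -0.29 in knockout and -0.12, 0.23 and -0.57 in wildtype, and Tap1, the peptide transporter of antigen presentation, had -0.12 and -0.11. The probe set shared by Gbp2 and Gbp2b had 0.072 in knockout and -0.34 in wildtype.

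**Figure D3:**
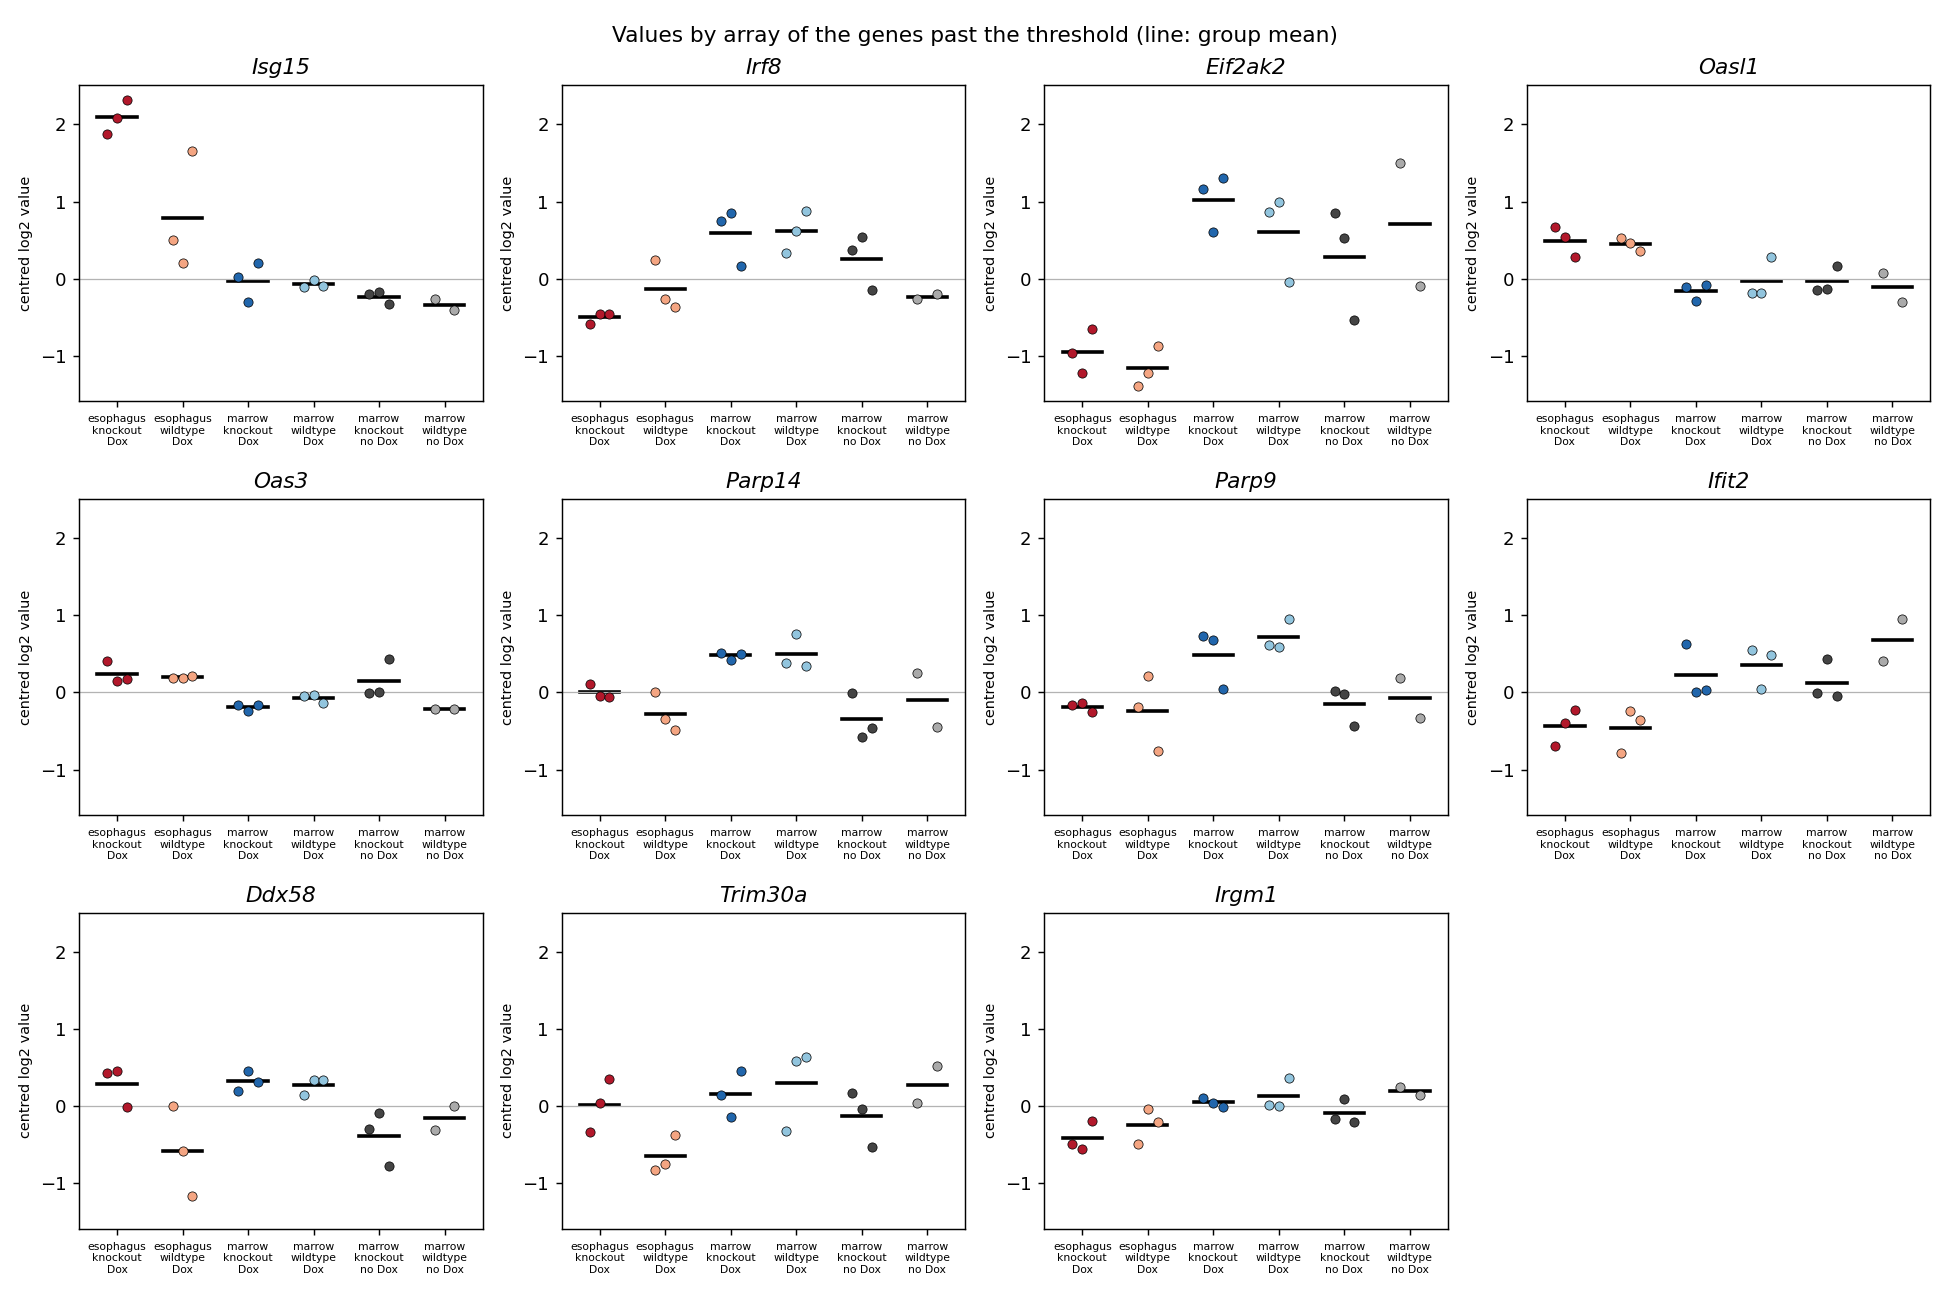
Centred log2 value of the 11 genes with an adjusted p under 0.05 between esophagus and marrow in knockout or wildtype; each point is 1 array, the line is the group mean and all panels share 1 axis. Isg15 in knockout esophagus lies between 1.87 and 2.31, above all other groups, and Eif2ak2 lies at or below -0.65 in all esophagus arrays.

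How far these calls rest on single arrays differed from gene to gene. Those of Isg15, Irf8 and Eif2ak2 in knockout held when any 1 array was left out. In knockout the Oasl1 call was lost without esophagus replicate 1 or marrow Dox replicate 2 (limma adjusted p up to 0.0671), the Oas3 call without esophagus replicate 1 or any knockout marrow Dox array (up to 0.0933), and the Irgm1 call without 11 of the 17 arrays taken 1 at a time (up to 0.164). In wildtype the Eif2ak2 call was lost without marrow Dox replicate 1 or 2 or esophagus replicate 2 (up to 0.0709), Parp14 without marrow Dox replicate 1 or 2 or esophagus replicate 2 or 3 (up to 0.0842), and Parp9 without marrow Dox replicate 1 or 3 or esophagus replicate 3 (up to 0.0751). Ifit2 lost its call without wildtype marrow Dox replicate 1 or 3 or wildtype esophagus replicate 1 or 3 (up to 0.115). Ddx58 lost it without any wildtype marrow Dox array, wildtype esophagus replicate 2 or 3 or knockout marrow Dox replicate 3 (up to 0.119), and its difference without wildtype esophagus replicate 3 was -0.57. Trim30a lost it without wildtype marrow Dox replicate 2 or 3, wildtype esophagus replicate 1 or 2, knockout marrow Dox replicate 1 or knockout esophagus replicate 2 (up to 0.127). The wildtype calls of Irf8 and Oasl1 were lost without 11 and 12 of the 17 arrays taken 1 at a time (up to 0.124 and 0.160).

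Markers of eosinophils and of other cell types moved between the same groups of arrays. Of 8 eosinophil markers, Alox15, Il5ra and Siglecf rose in the esophagus in knockout and the granule protein genes Epx, Prg2 and Prg3 fell; in wildtype Alox15 rose and the same 3 granule genes fell. Neutrophil markers had a median difference, esophagus minus marrow, of -2.88 in knockout and -3.02 in wildtype, with 9 and 8 of 12 lower and 1 higher in each. Monocyte and macrophage markers had -1.60 in knockout (7 of 11 lower, 1 higher) and -0.46 in wildtype (3 lower, 1 higher). Mast cell and basophil markers had -0.95 and -1.21, with 4 of 8 lower in each genotype. Conventional dendritic cell markers had 0.48 and 0.23 (2 of 7 higher in each), and plasmacytoid dendritic cell markers, which include Bst2, had -0.079 and 0.13 (1 of 9 lower in knockout). All 9 fibroblast and endothelium markers had positive differences in both genotypes, with medians of 0.18 in knockout and 0.33 in wildtype; Col1a2, Col3a1 and Pecam1 rose in knockout and Col3a1 in wildtype. Their mean value per array was 0.30 to 0.52 in knockout esophagus and 0.19 to 0.39 in wildtype esophagus, with -0.11 to -0.082 in knockout marrow and -0.088 to -0.054 in wildtype marrow, so the tissues did not overlap. Esophageal epithelium markers had medians of 0.22 and 0.25, with 8 of 9 positive in each genotype; Krt13 rose in knockout and Cdh1 fell in wildtype. Their mean per array was 0.068 to 0.35 in knockout esophagus and -0.020 to 0.20 in wildtype esophagus, with -0.12 to -0.011 in knockout marrow and -0.057 to 0.021 in wildtype marrow. T and NK cell markers had medians of 0.081 and 0.20 (1 of 10 lower in each, Nkg7), B cell markers -0.067 and 0.22 (1 of 7 lower in knockout, Cd79b) and erythroid markers -0.22 and 0.088 (1 of 4 lower in each, Car1). The part of any of these cell types in the differences of the interferon-stimulated genes was not tested.

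No member passed the threshold between Pirb knockout and wildtype, in any of the 3 settings in which they were compared. In the esophagus with Dox, 0 of 38 members passed, against 0.347% of all genes, and 4 had an unadjusted p under 0.05 by limma. The median difference, knockout minus wildtype, was 0.017, against -0.095 for all genes, with 21 members positive and 17 negative. Knockout arrays lay wholly above wildtype arrays for 2 members, Isg15 and Trim30a (5.26%, against 5.67% of all genes), and wholly below for 2, Irf8 and Ifitm3 (5.26%, against 17.6%). The 8 eosinophil markers had a median difference of 0.59 in the same comparison, with 7 positive, and Siglecf rose by 0.95 (limma adjusted p = 0.0259); their part in the differences of the members was not tested.

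Isg15 had the largest genotype difference. It was 1.87, 2.09 and 2.31 in knockout esophagus, against 0.50, 0.20 and 1.66 in wildtype esophagus, a difference of 1.30 ± 0.28 (SE, unadjusted p = 0.000392, limma adjusted p = 0.0688). The groups did not overlap, and wildtype replicate 3 stood nearest to the knockout arrays. Without that array the difference was 1.74 and passed (limma adjusted p = 0.00109), and without the outlying knockout marrow array with no Dox it also passed (0.0323). With wildtype replicate 2 left out the difference was 1.01 (limma adjusted p = 0.193), and after quantile normalization it was 0.74 (limma adjusted p = 0.832). In marrow with Dox the same gene differed by 0.049 ± 0.28, and the interaction of genotype and tissue was 1.26 ± 0.39 (unadjusted p = 0.00671, limma adjusted p = 0.752), which passed without wildtype esophagus replicate 3 (1.69, limma adjusted p = 0.0346).

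Ddx58 followed, with 0.43, 0.46 and -0.0038 in knockout esophagus, against -0.0021, -0.57 and -1.16 in wildtype esophagus (0.87 ± 0.25, limma adjusted p = 0.178). Its arrays overlapped by 1 wildtype value, replicate 1, and without that array the difference was 1.16 (limma adjusted p = 0.0215). Irf9, Gbp7 and Rsad2 passed in that same setting, at 0.93, 1.12 and -0.44 (limma adjusted p = 0.0481, 0.0462 and 0.0441). The interaction of genotype and tissue for Ddx58 was 0.83 ± 0.35 (limma adjusted p = 0.962).

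The most negative differences in the esophagus were those of Usp18 and Irf7. Usp18 had 0.17, 0.062 and -0.16 in knockout esophagus, against -0.11, 1.60 and 0.15 in wildtype esophagus (-0.52 ± 0.33, limma adjusted p = 0.444). Without wildtype replicate 2 the difference was 0.0058, so its sign rested on that array. Irf7 had -0.31, 0.48 and 0.040, against -0.41, 0.94 and 1.08 (-0.47 ± 0.34, limma adjusted p = 0.494). In both genes the groups overlapped, and wildtype held 1 or 2 high arrays. Rtp4 and Rsad2 had the most negative interactions of genotype and tissue, -0.53 ± 0.47 and -0.44 ± 0.19 (limma adjusted p = 0.962 for each). Rtp4, a chaperone of receptor trafficking, was -0.66, 0.20 and -0.071 in knockout esophagus and -0.86, 0.45 and 0.56 in wildtype esophagus, with 0.60, 0.68 and 0.36 in knockout marrow and -0.15, 0.41 and 0.45 in wildtype marrow. Rsad2 was -0.18, -0.29 and -0.29 in knockout esophagus and -0.37, 0.21 and 0.17 in wildtype esophagus, with 0.056, -0.0064 and -0.0025 in knockout marrow and -0.25, 0.0025 and -0.26 in wildtype marrow.

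In marrow with Dox, 0 of 38 members passed and 0% of all genes did, with 1 member at an unadjusted p under 0.05 by limma. The median difference was -0.028, against -0.020 for all genes. Bst2 was 0.88, 0.33 and 0.51 in knockout marrow, against 0.074, -0.047 and -0.099 in wildtype marrow (0.60 ± 0.21, unadjusted p = 0.0153, limma adjusted p = 1.00). Oasl2 was 0.40, -0.15 and 0.055 in knockout, against -0.86, -0.49 and -0.15 in wildtype (0.60 ± 0.30, limma adjusted p = 1.00). Knockout arrays lay above wildtype arrays in both genes and in no other member (5.26%, against 4.11% of all genes), and wholly below in Oas3 (2.63%, against 7.62%). Mx2 was 0.35, -0.23 and 0.0098 in knockout, against 0.41, -0.061 and 0.62 in wildtype (-0.28), and Parp9 was 0.73, 0.68 and 0.045, against 0.62, 0.59 and 0.95 (-0.24), with overlap in each.

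In marrow with no Dox, where wildtype had 2 arrays, 0 of 38 members and 0% of all genes passed, with 4 members at an unadjusted p under 0.05 by limma. The median difference was 0.055, against 0.094 for all genes, and it changed sign, to -0.0062 with quantile normalization, -0.031 with median centring, -0.013 without knockout replicate 3, -0.016 without knockout replicate 2 and -0.0021 without wildtype replicate 3. Ifit3 was 0.16, -0.19 and 0.83 in knockout marrow, against -0.26 and -0.32 in wildtype marrow (0.55 ± 0.25), and Irf8 was 0.37, 0.54 and -0.15, against -0.26 and -0.20 (0.48 ± 0.25). Gbp7 was 0.67, -0.014 and -0.19 in knockout, against 0.63 and 0.88 in wildtype (-0.60 ± 0.36), and Ifit2 was -0.0077, 0.43 and -0.048, against 0.41 and 0.95 (-0.56 ± 0.26). The limma adjusted p was 0.546 or 0.547 for each of these 4. Knockout arrays lay wholly above wildtype arrays in 4 members (10.5%, against 17.6% of all genes) and wholly below in 1 (2.63%, against 5.72%). These shares were not read without knockout replicate 3, the outlying array.

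**Figure D4:**
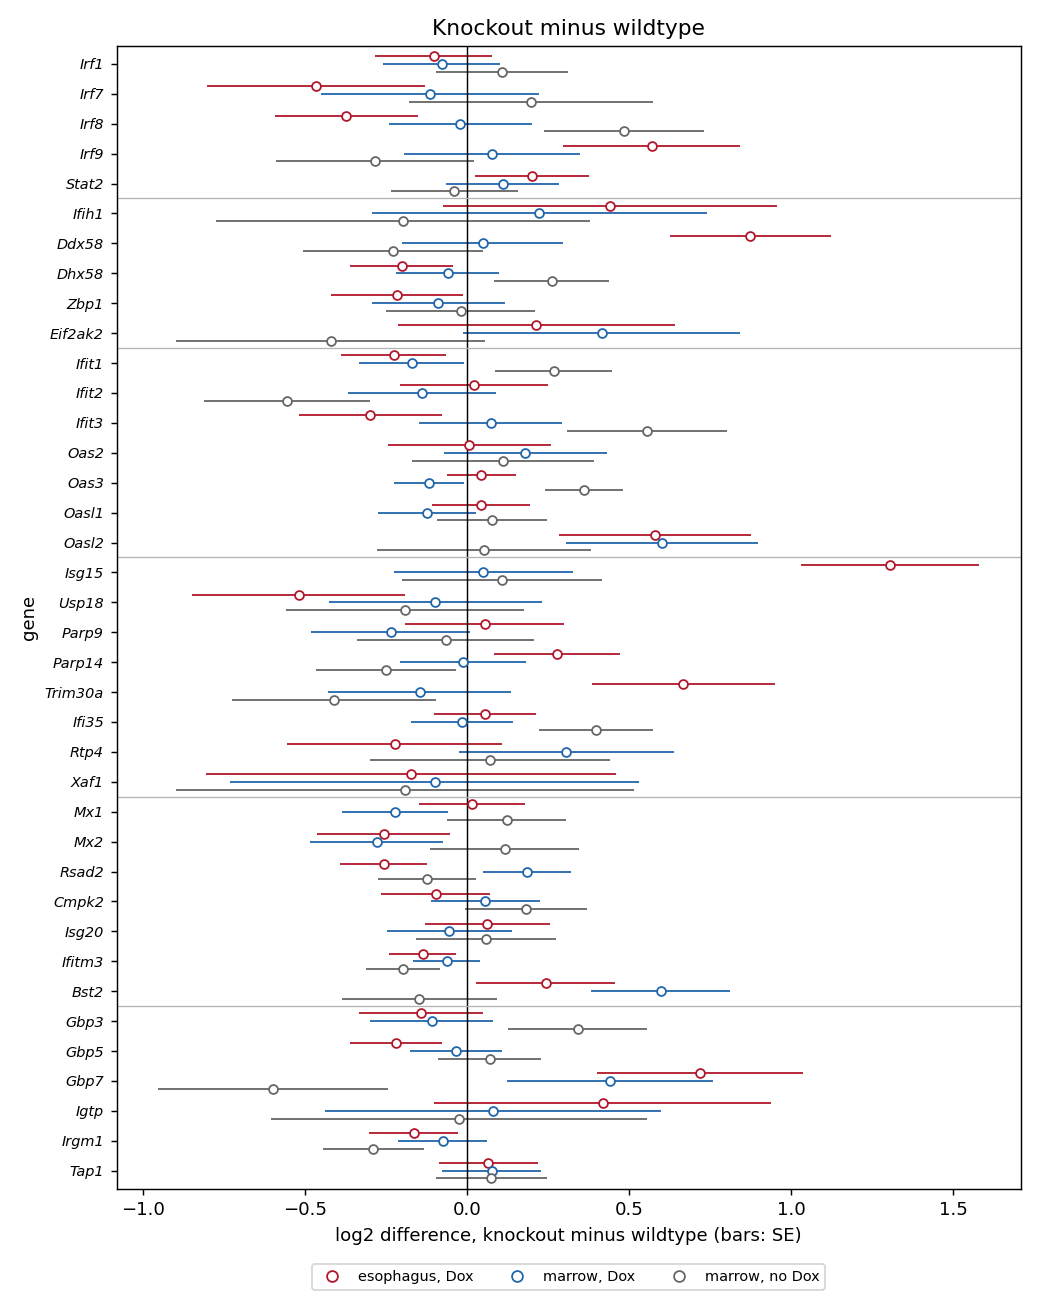
Log2 difference, knockout minus wildtype, of each of the 38 genes in esophagus with Dox (red), marrow with Dox (blue) and marrow with no Dox (grey); points are model estimates and bars are SE. No gene had an adjusted p under 0.05, and Isg15 in esophagus lies farthest from 0 at 1.30.

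No member passed the threshold between Dox and no Dox in marrow. In knockout marrow 0 of 38 passed, against 0.0225% of all genes, with 6 members at an unadjusted p under 0.05 by limma. In wildtype marrow 0 passed, against 0.0225% of all genes, with 5 at an unadjusted p under 0.05. The median difference, Dox minus no Dox, was 0.098 in knockout and 0.12 in wildtype, against -0.13 and -0.0050 for all genes. Without knockout marrow with no Dox, replicate 3, the median in knockout was 0.032 for the members and -0.054 for all genes. These comparisons share no arrays; they had the same sign in 19 members (14 higher, 5 lower) and opposite signs in 19. Arrays with Dox lay wholly above those with no Dox for 7 members in knockout (18.4%, against 8.34% of all genes) and 7 in wildtype (18.4%, against 12.5%). They lay wholly below for 2 in knockout (5.26%, against 28.1%) and 4 in wildtype (10.5%, against 12.9%). Knockout marrow with no Dox, replicate 3, was the highest of its group for 64.5% of all genes and for 18 of 38 members. The knockout shares were not read without that array.

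In the mean of both genotypes 0 members passed, against 0.234% of all genes (0.180% higher, 0.0541% lower), with 6 at an unadjusted p under 0.05 by limma. Parp14 and Parp9 had the largest positive means. Parp14 was 0.51, 0.43 and 0.50 in knockout marrow with Dox, against -0.0093, -0.57 and -0.46 with no Dox (0.83 ± 0.19, limma adjusted p = 0.134). In wildtype marrow it was 0.38, 0.76 and 0.34 with Dox, against 0.25 and -0.45 with no Dox (0.59 ± 0.22, limma adjusted p = 0.947). Over both genotypes the difference was 0.71 ± 0.15 (limma adjusted p = 0.0673), with arrays wholly apart in each genotype. It passed without knockout marrow no Dox replicate 1 (limma adjusted p = 0.0380) and without wildtype marrow no Dox replicate 1 (0.0277).

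Parp9 was 0.73, 0.68 and 0.045 in knockout marrow with Dox, against 0.017, -0.017 and -0.43 with no Dox (0.63 ± 0.24, limma adjusted p = 0.158). In wildtype marrow it was 0.62, 0.59 and 0.95 with Dox, against 0.18 and -0.34 with no Dox (0.80 ± 0.27, limma adjusted p = 0.863), and the mean of both was 0.71 ± 0.18 (limma adjusted p = 0.136). Irf8 had 0.33, 0.62 and 0.88 in wildtype marrow with Dox, against -0.26 and -0.20 with no Dox (0.84 ± 0.25, limma adjusted p = 0.630). Its knockout arrays had 0.75, 0.85 and 0.17 with Dox, against 0.37, 0.54 and -0.15 with no Dox (0.34), and overlapped. Eif2ak2 in knockout was 1.16, 0.60 and 1.30 with Dox, against 0.85, 0.53 and -0.53 with no Dox (0.74 ± 0.43, limma adjusted p = 0.241).

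On the negative side in knockout marrow stood Oas3, with -0.16, -0.24 and -0.17 with Dox, against -0.0066, 0.0066 and 0.43 with no Dox (-0.33 ± 0.11, limma adjusted p = 0.149), and Ifit1, with -0.0069, 0.0028 and -0.0052, against 0.032, 0.35 and 0.60 (-0.33 ± 0.16, limma adjusted p = 0.194). In both genes the arrays with Dox lay wholly below. In wildtype marrow Gbp7 was -0.26, -0.018 and 0.097 with Dox, against 0.63 and 0.88 with no Dox (-0.81 ± 0.36, limma adjusted p = 1.00). Oasl2 in wildtype was -0.86, -0.49 and -0.15 with Dox, against -0.096 and -0.0038 with no Dox (-0.45 ± 0.33). Over both genotypes the most negative means were those of Gbp7, -0.29, and Rsad2, -0.18.

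The interaction of genotype and Dox passed for 0 members and 0% of all genes, with 3 members at an unadjusted p under 0.05 by limma. Gbp7 (1.04 ± 0.48) and Eif2ak2 (0.84 ± 0.64) were the most positive, and Irf8 (-0.51 ± 0.33) and Ifit3 (-0.48 ± 0.33) the most negative, each with a limma adjusted p of 0.663. All 11 monocyte and macrophage markers had positive Dox differences in both genotypes, with medians of 0.99 in knockout and 1.00 in wildtype. Without knockout marrow with no Dox, replicate 3, the median in knockout was 0.44 and 8 of the 11 were positive. In the mean of both genotypes Mertk and Mrc1 rose, and without that array Mertk did. The eosinophil marker Epx rose with Dox only without that array, by 1.20 in the mean and 1.50 in wildtype (limma adjusted p = 0.00112 and 0.00447). The part of these markers in the Dox differences of the members was not tested.

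**Figure D5:**
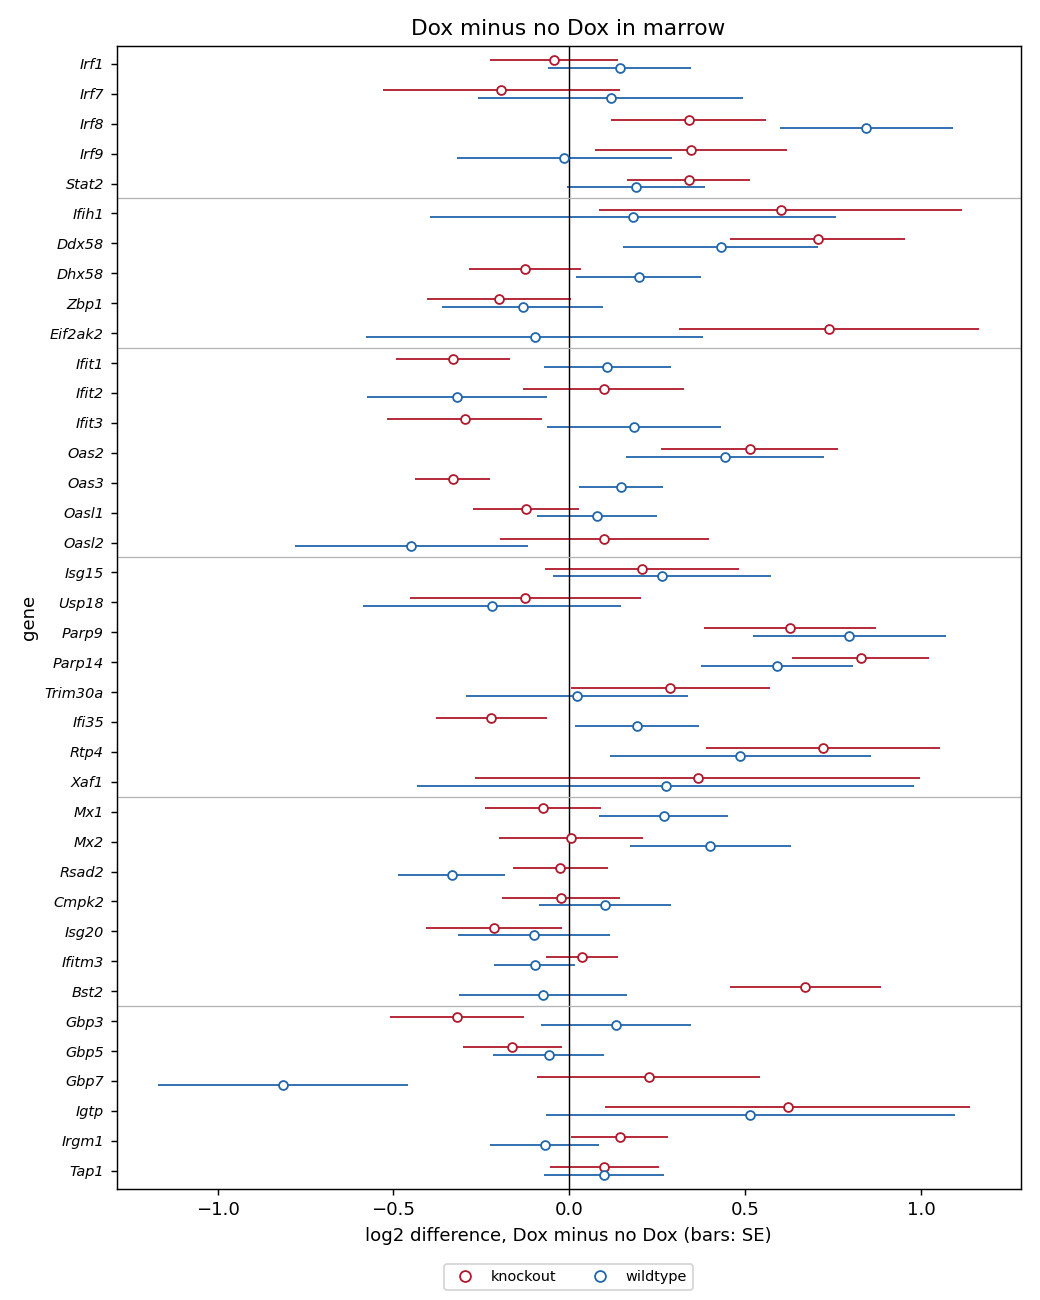
Log2 difference, Dox minus no Dox in marrow, of each of the 38 genes in knockout (red) and wildtype (blue); points are model estimates and bars are SE. No gene had an adjusted p under 0.05, and Parp14 and Parp9 lie to the right of 0 in both genotypes, between 0.59 and 0.83.

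Other genes of the interferon system were read from 6 lists, of which that of inhibitors also holds Usp18. Among all genes 4.50% rose and 6.04% fell in knockout esophagus, and 8.11% rose and 7.06% fell in wildtype. Calls depended on 1 array, knockout marrow with no Dox, replicate 3: without it 18.8% of all genes passed between tissues in knockout and 36.5% in wildtype. The list of inhibitors of interferon signalling also counts the immediate-early gene Fos and the NF-kappaB regulator gene Tnfaip3. In the esophagus 5 of its 13 genes rose in knockout and 3 in wildtype, Fos and Tnfaip3 among them in each. Without that array 5 rose and 1 fell in knockout, and 4 rose and 1 fell in wildtype, the one that fell being Ptpn11. Tnfaip3, encoding the NF-kappaB brake A20, rose by 4.07 in knockout and 4.01 in wildtype (limma adjusted p = 1.3e-07 and 1.72e-07). Socs3, a feedback inhibitor of JAK kinases, rose by 1.05 and 1.59 (limma adjusted p = 0.000277 and 1.22e-05), and Fos by 1.33 and 1.00 (limma adjusted p = 0.00214 and 0.0132). Irf2, an antagonist of IRF1, and the phosphatase gene Ptpn2 rose in knockout, by 1.83 and 0.82 (limma adjusted p = 0.00845 and 0.0295).

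Sensors and adaptors outside the list fell in the esophagus in 4 of 15 genes in knockout and 3 in wildtype. Without knockout marrow with no Dox, replicate 3, 5 fell in knockout, and in wildtype 3 fell and 1, Tlr9, rose. Ikbke, a kinase that activates interferon regulatory factors, fell, with differences of -1.11 in knockout and -0.86 in wildtype (limma adjusted p = 0.00368 and 0.0176). Unc93b1, the chaperone of endosomal Toll-like receptors, fell, with differences of -0.97 and -0.89 (limma adjusted p = 0.0283 and 0.0367). The RNA receptors Tlr7 and Tlr8 fell in knockout, with differences of -1.02 and -0.98 (limma adjusted p = 0.0227 and 0.0198), and the DNA sensor family gene Ifi204 fell in wildtype, with a difference of -1.36 (limma adjusted p = 0.0114).

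Of 10 receptor and JAK-STAT genes measured, 3 rose in knockout esophagus: Il10rb, a shared chain of the receptors for interferon lambda and interleukin-10 (0.86), the kinase gene Tyk2 (0.32) and the receptor chain Ifnar1 (1.13), with limma adjusted p = 0.00201, 0.0190 and 0.0215. In wildtype 1 fell, Ifngr1 (-0.82, limma adjusted p = 0.0361). Without knockout marrow with no Dox, replicate 3, 6 of the 10 rose in knockout, Jak1, Jak2 and Stat3 being added, and in wildtype 1 rose and 1 fell. Il10rb also rose with Dox in the mean of both genotypes (0.75, limma adjusted p = 0.0161). Among 19 interferon genes, Ifna7 rose in the esophagus in both genotypes, by 0.48 and 0.65 (limma adjusted p = 0.0300 and 0.00594), and Ifng rose in wildtype by 0.29 (limma adjusted p = 0.0257). Without that array 3 of the 19 rose in knockout and 8 in wildtype. Interferon alpha genes are near-identical copies, and whether the Ifna7 probes read others was not tested.

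A further list of 50 interferon-induced genes also split. In knockout esophagus 7 rose and 6 fell, and in wildtype 3 rose and 6 fell. Without knockout marrow with no Dox, replicate 3, 7 rose and 8 fell in knockout, and 3 rose and 9 fell in wildtype. Ifitm1, a relative of Ifitm3, rose by 2.40 in knockout and 2.40 in wildtype (limma adjusted p = 0.000141 and 0.000197), and Samhd1, which depletes nucleotides, by 1.65 and 1.57 (limma adjusted p = 0.000253 and 0.000509). Gbp8, a guanylate-binding protein gene, fell, with differences of -3.35 and -3.06 (limma adjusted p = 0.000460 and 0.00119), and Lgals3bp, a secreted glycoprotein gene, with differences of -1.36 and -1.62 (limma adjusted p = 0.000806 and 0.000322). Iigp1, a GTPase gene of the Irgm1 family, fell, with differences of -1.42 and -1.50 (limma adjusted p = 0.0151 and 0.0120). Lgals3bp rose with Dox in the mean of both genotypes (0.92, limma adjusted p = 0.0281). Without knockout marrow with no Dox, replicate 3, Lgals3bp (0.77) and Oas1g (2.02) rose and Ifitm1 (-1.22) fell in that mean. The limma adjusted p was 0.00838, 0.00441 and 0.0316. In wildtype alone Lgals3bp (1.12) and Oas1g (2.64) then rose as well (limma adjusted p = 0.0115 for each).

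Cxcl10, an interferon-induced chemokine gene whose product attracts T cells, had a genotype difference past the threshold in the esophagus, as did 0.347% of all genes, and no other gene of the 6 lists passed with all 17 arrays. It was 1.74, 0.98 and 1.30 in knockout esophagus, against 0.15, 0.18 and 0.21 in wildtype esophagus, a rise of 1.16 ± 0.18 (SE, limma adjusted p = 0.0239). In marrow with Dox it was -0.078, -0.28 and -0.15 in knockout and -0.17, -0.32 and -0.17 in wildtype. The 3 knockout esophagus arrays were the highest of all 17. Without knockout marrow with no Dox, replicate 3, 3.44% of all genes passed; Ifnar1, Il10rb, Ptpn2, Ptpn6, Epsti1 and H2-T23 then passed as higher in knockout and Socs3 as lower. Antigen processing genes had 2 of 16 higher in knockout esophagus, H2-Ab1 (1.16) and H2-Q4 (0.42), with limma adjusted p = 0.0490 and 0.0491. In wildtype H2-Ab1 (1.23) and Psme2 (0.85) rose and Psmb8 (-0.50) fell, with limma adjusted p = 0.0329, 0.0241 and 0.0121. Without that array 4 of the 16 rose and 1 fell in knockout, and 2 rose and 4 fell in wildtype.

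In 5 of 6 groups the median member varied more between arrays than the median gene. The median SD over the arrays of a group was 0.195 for members in knockout esophagus, against 0.118 for all genes, 0.299 against 0.170 in wildtype esophagus, 0.170 against 0.0891 in knockout marrow with Dox and 0.219 against 0.110 in wildtype marrow with Dox. It was 0.248 against 0.249 in knockout marrow with no Dox, the group with the outlying array. In wildtype marrow with no Dox, with 2 arrays, it was 0.215 against 0.0934. All genes were counted with no filter on dim probes, so the larger spread is not shown to be particular to the members. The range over all 17 arrays ran between 0.62 for Tap1 and 3.17 for Xaf1, with a median of 1.24. Xaf1 was -0.24, 0.29 and 1.10 in knockout esophagus and -0.72, 2.45 and -0.059 in wildtype esophagus, with wildtype replicate 2 the highest of all arrays.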

How the data were processed

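Eosinophils sorted from esophagus and marrow were profiled on Affymetrix arrays. The authors deposited log2 values, made with Affymetrix Expression Console per the submitters' processing notes; the log base is taken as 2, and its normalization method was not stated in the sources read here. In the deposited values each probe set is centred on the median of 18 arrays, of which 17 were analysed here: for 96.9% of 33793 probe sets the middle values of these 17 were as such centring leaves them. Detection and brightness can therefore not be read, and the number of arrays limits the precision.

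Symbols came from the platform annotation, updated by Entrez ID for 23328 probe sets. Of all probe sets, 23521 had 1 symbol, 1814 had several and 8458 had none. Probe sets with 1 symbol were averaged per gene, giving 22180 genes, of which 1082 had several probe sets. Groups came from the labels. The limma package (3.58.1, in R 4.3.3) fitted 6 group means with empirical Bayes variances. In total 10 comparisons were tested two-sided with Benjamini-Hochberg adjustment over all genes at 0.05. A run on simulated arrays checked that the fit returns a known difference. Those arrays had normal noise and no outlying array, so the run does not check the variances of these data. Alternatives were leaving out each array, the replicate number as a block, quantile normalization, median centring, only the groups compared, array weights, robust variances and the lowest-numbered probe set.

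The members and all gene lists were chosen with earlier results of these data known. Values per array are given for members past the threshold and for the 2 largest differences in each direction of each comparison; of other lists, at most 6 genes past the threshold are named. Genes of these lists that passed without 1 array, the marker genes and, beyond those 6, Oas1g were named after their values were seen. Tissue and cell preparation (collagenase for esophagus, a needle for marrow) cannot be told apart. Same-numbered arrays of different groups correlated at -0.0999 to 0.231 (median 0.035) in their deviations from the group means. Arrays of different numbers correlated at -0.233 to 0.210 (median -0.022). Of 40 same-numbered pairs 11 were over 0.1, against 9 of 80 other pairs. The main fit did not pair arrays by number, and whether same-numbered arrays share a batch was not tested. No array pair in a group was a duplicate (highest correlation 0.832). Promoter sequences are from RefSeq (GRCm38.p6).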

Additional observations from a re-analysis of the deposited data

How the results depend on the processing

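The genotype comparisons in marrow with and with no Dox, the Dox comparison in wildtype and the interaction of genotype and Dox had 0 members past the threshold in all 24 alternatives. None of the 26 member differences with an adjusted p under 0.1 changed sign in any of them. Among all 38 members the sign changed in at least 1 alternative for 15 in the genotype comparison in the esophagus, 8 in that of tissue in knockout and 5 in that of tissue in wildtype. Leaving out 1 array gave 0 to 4 members for genotype in the esophagus (0 in the full data), 3 to 7 for tissue in knockout (6), 1 to 16 for tissue in wildtype (8), 0 to 1 for the interaction of genotype and tissue (0), 0 to 2 for Dox in knockout (0) and 0 to 1 for the mean Dox difference (0). With array weights there was 1 member for genotype in the esophagus (Ddx58), 14 for tissue in knockout, 4 for Dox in knockout (Ifit1, Oas3, Bst2, Parp14) and 2 for the mean Dox difference (Parp9, Parp14). With only the groups compared there were 12 for tissue in knockout and 5 in wildtype. Quantile normalization gave 2 for tissue in wildtype and 2 for the mean Dox difference (Ddx58, Parp9). With the replicate block the mean Dox difference had 1 (Parp14); tissue had 5 in knockout and 9 in wildtype, sharing 5 and 7 with the unblocked fit, and 11 of 17 arrays correlated best with their own number. Calls among all genes moved over the alternatives too. The member counts given here are not set against the share of all genes in the same setting, so they show no change particular to the members. The cause of these changes was not tested.

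With median centring the median of all genes was 0.032 for tissue in wildtype, in place of 0.14, and -0.017 for Dox in knockout, in place of -0.13; the member medians then were -0.29 and 0.21. Of all genes called between tissues in wildtype, 1799 of 3366 were higher, against 803 of 2048 with quantile normalization and 1181 of 2919 with centring. Over the alternatives the calls among all genes ran between 2 and 858 for genotype in the esophagus (77), 1538 and 6117 for tissue in knockout (2336), 1335 and 8210 in wildtype (3366), 0 and 3331 for Dox in knockout (5), 0 and 126 in wildtype (5), and 8 and 1519 for the mean Dox difference (52). For genotype in marrow they reached 6 with Dox and 37 with no Dox, for the interaction of genotype and tissue 35, and for that of genotype and Dox 4. Leaving out 1 wildtype array with no Dox leaves a lone array, assumed to vary like the other groups. A filter on dim probes was not run, because centred values hold no brightness.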

Other observations

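Wildtype esophagus replicate 2 held several extreme values of the interferon system at once, in genes chosen here after their values were seen. Ifnb1, the gene of interferon beta, was -0.069, -0.13 and -0.15 in knockout esophagus, against 0.20, 5.05 and 0.31 in wildtype esophagus, and stayed between -0.20 and 0.31 on the other 16 arrays. Its genotype difference was -1.97 ± 0.89 (limma adjusted p = 0.333). On the same array Usp18 (1.60), Xaf1 (2.45), Ifitm3 (0.28) and Gbp5 (0.42) had their highest value of all 17 arrays. Ifih1 (-1.83), Irf9 (-1.08) and Gbp7 (-1.07) had their lowest value there. Isg15, by contrast, was 0.20 there, the lowest of the 6 esophagus arrays. That array was the highest of its group for 46.2% of all genes and for 17 members. How many of all genes had an extreme over all 17 arrays there was not counted. The extremes are therefore not shown to be particular to the interferon system. The values of replicate 2 are those of 1 array with no replicate. It was not the only array with extremes. Wildtype esophagus replicate 1 was the lowest of its group for 22 members and for 51.6% of all genes. Among others, Eif2ak2 (-1.39), Ifit2 (-0.79), Xaf1 (-0.72) and Irf7 (-0.41) had their lowest value of all 17 arrays on replicate 1.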
